A study of Mus musculus with 24 samples.

Results

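This report covers the livers of 6 mice out of 24 in the series: 3 mice labelled as JNKΔhepa double knockouts and 3 labelled as controls, all examined 28 days after bile duct ligation. They were chosen by their titles, and the 2 groups were compared across all 18820 genes measured. The remaining 18 livers formed 6 groups. JNKΔhepa double knockouts and controls were treated with diethylnitrosamine (a liver carcinogen), with day 40 as the stated time. Untreated controls and NEMO/JNKΔhepa triple knockouts were 52 weeks old. NEMO knockouts and NEMO/JNK1Δhepa double knockouts were 8 weeks old. The mice named NEMO lacked NEMO in hepatocytes. In the JNKΔhepa double knockouts, per the labels, the genes for the kinases JNK1 (Mapk8) and JNK2 (Mapk9) are inactive in hepatocytes. The growth protocol gives these mice a floxed Jnk1 allele on a Jnk2-/- background, so that loss of JNK1 depends on Alb-Cre, a recombinase driven by the albumin promoter of hepatocytes, while loss of JNK2 would reach every cell. The genotype of the ligated controls is given only as control, the strain is stated as C57BL/6 for the Alb-Cre and Jnk2-deficient founders, and the age at surgery is not given in the sources used here. No liver from a sham operation was analysed here, so that the values compare genotypes after ligation and not ligation itself.

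JNK1 and JNK2 are stress-activated kinases that phosphorylate JUN, a subunit of the AP-1 transcription factor, after inflammatory signals, oxidants or toxic bile acids. Ligation of the common bile duct stops bile flow. Bile acids then build up in the liver, bile ducts multiply, neutrophils and macrophages gather and scar tissue forms around the ducts.

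The 6 arrays, 1 for each mouse, had median log2 values between 4.594 and 4.641, and pairs of arrays correlated with r of 0.979 to 0.987 within a group and 0.978 to 0.981 between groups. Values are on the log2 scale throughout, so that a difference of 1 is a 2-fold difference, and levels of different genes are not compared with each other. All 6 ligated livers had Xist values of 2.39 to 3.04 with signal from Y-linked genes. Mouse identifiers of control 1 and control 2 belong to another series than those of control 3 and the knockouts. Against control 3 alone, whose spread was taken to equal that of the knockouts, limma called 284 genes, 115 of them among the 255 called below.

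The targeted gene Mapk8 was read first. It lay at 6.75, 6.84 and 6.55 in control livers 1, 2 and 3, and at 5.41, 6.00 and 5.67 in knockout livers 1, 2 and 3. The groups did not overlap, and Mapk8 fell by 1.02 (SE 0.16) in the knockouts with a limma adjusted p of 0.0299. Mapk8 no longer passed when control 1, control 2, knockout 1 or knockout 3 was left out (adjusted p up to 0.125). In whole liver, fewer cells of a type and less RNA per cell cannot be told apart in general. The summed level of 26 hepatocyte genes was 16.66 to 16.67 in controls and 16.74 to 16.78 in knockouts. Such a sum is weighted to its brightest members, and the share of hepatocytes in each liver was not tested. Mapk9 was 3.10 ± 0.03 (SD, n = 3) in controls and 3.15 ± 0.17 in knockouts, and the groups overlapped. Its mean was 8.34 and 8.39 in the 2 groups of 8-week mice that keep JNK2 by label. Other groups labelled control were also low, at 3.24 at 52 weeks and 3.16 after diethylnitrosamine. The diethylnitrosamine knockouts had a mean of 3.07. The ligated controls thus had no Mapk9 signal beyond that of the knockouts, and the comparison did not contrast livers with and without Mapk9 transcript. Ikbkg, which encodes NEMO and is intact in both groups by label, was 7.39 ± 0.11 in controls and 7.02 ± 0.04 in knockouts (limma adjusted p = 0.145).

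Limma called 255 of 18820 genes at an adjusted p under 0.05, which is 1.35% of those tested. In the knockouts 150 genes were higher (0.797%) and 105 were lower (0.558%), and 86 and 56 of these differed at least 2-fold. At an unadjusted p under 0.05, 1445 genes were higher (7.68%) and 1304 lower (6.93%), the shares against which such counts in gene lists are to be read. The median difference over all genes was -0.0018, with 49.6% of genes above 0, and the median size of a called difference was 1.05. The 2 groups did not overlap for any of the 255 genes, while 20.7% of all genes tested had groups that did not overlap. Single livers weighed on the count: 58 genes were called without knockout 1, 59 without knockout 2, 97 without knockout 3 and 121 without control 1, against 391 without control 2 and 559 without control 3. A core of 49 genes, 28 higher and 21 lower, was called in all 6 fits that left out 1 liver, and a named gene outside this core is given below with the livers its call needed.

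**Figure D1:**
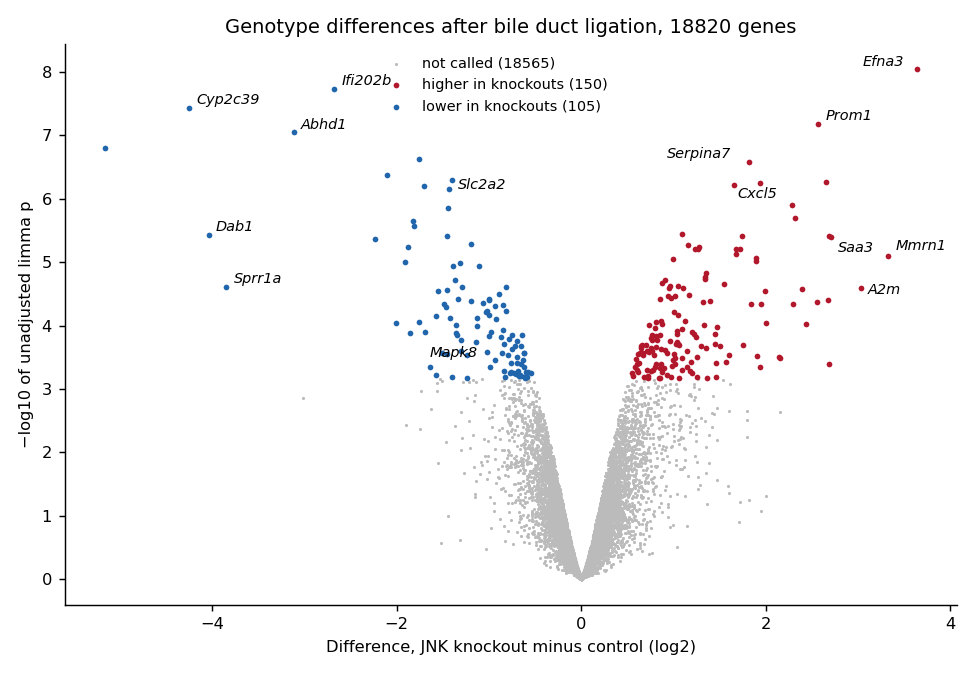
Each point is 1 of 18820 genes, placed by the knockout minus control difference after bile duct ligation (log2, x axis) and by the unadjusted limma p (minus log10, y axis). Red points are the 150 genes called higher and blue points the 105 called lower in the knockouts; Efna3 (3.64) and Cyp2c39 (-4.25) lie far out on either side.

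Efna3, which encodes the membrane-bound guidance ligand ephrin-A3, had the largest rise. It was 4.73, 4.68 and 4.79 in the controls and 8.38, 8.10 and 8.65 in the knockouts, a difference of 3.64 (SE 0.15, limma adjusted p = 0.000172). A second, dimmer Efna3 probe set differed by only 0.65, so that the size of the rise depends on the probe set. Mmrn1, for multimerin 1 of platelets and endothelium, was 2.44, 2.65 and 2.45 in controls and 6.49, 6.03 and 5.02 in knockouts, 3.33 higher (adjusted p = 0.00402). Knockout 3 was the lowest of the knockouts and still lay above every control. Mmd2, a membrane protein related to a monocyte differentiation factor, rose by 2.65 from 4.14 ± 0.37 to 6.79 ± 0.09. All 3 belong to the core of 49 genes.

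Within the JNK pathway, 0 of 24 measured genes were higher and 3 were lower, and the list median was -0.10. Besides Mapk8, these were Dusp4 and Dusp8, phosphatases that switch off MAP kinases. Dusp8 was 6.07, 5.14 and 5.37 in controls and 3.92, 4.32 and 3.99 in knockouts, a fall of 1.45 (SE 0.24, limma adjusted p = 0.0306). Dusp4 fell by 0.93, from 5.12 ± 0.18 to 4.19 ± 0.02. Both phosphatases were lower in each knockout than in any control, which holds for every gene called lower. Both calls were lost without any 1 of the 3 knockouts (limma adjusted p up to 0.148 and 0.0701). Dusp16, a related phosphatase, had a difference of -1.24 and did not pass (adjusted p = 0.0723). Map2k4, a kinase directly above JNK, is among the 21 members that did not pass, with a difference of -0.18 (adjusted p = 0.481).

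Of 26 AP-1 and immediate early genes 1 passed, Jund, an AP-1 subunit, which fell by 0.70 from 8.08 ± 0.18 to 7.38 ± 0.05 (limma adjusted p = 0.0374). Its call was lost without control 1, control 3 or any 1 knockout (adjusted p up to 0.173). The list median was -0.10. Fos had a difference of 0.99 (adjusted p = 0.522) and Klf6 one of -0.83 (adjusted p = 0.0516), neither called.

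The consensus site of AP-1 is TGACTCA or TGAGTCA. Promoters of called genes were searched for the looser letters TGANTCA, with any middle base, so that the counts also hold matches outside the consensus. Both strands were searched, from 250 bases before to 50 bases after each gene's start in RefSeq (GRCm38.p6). The letters stood in 16 of 131 promoter-matched genes that were higher (12.21%), in 6 of 78 that were lower (7.69%) and in 1168 of 14749 matched genes among all tested (7.92%). Of all 32851 promoters in the table, 7.81% held them. The 4 promoters below were chosen among called genes that hold these letters. They do not show how often genes of a role hold them, and Saa3, of the acute phase, had no match. The chosen promoters belong to genes of 4 roles, namely iron and acute phase, chemokine, duct marker and epithelial envelope. Each is the 250 bases before the start, with the letters that match TGANTCA in capitals.
Hamp2, chr7:30924182-30924431, minus strand: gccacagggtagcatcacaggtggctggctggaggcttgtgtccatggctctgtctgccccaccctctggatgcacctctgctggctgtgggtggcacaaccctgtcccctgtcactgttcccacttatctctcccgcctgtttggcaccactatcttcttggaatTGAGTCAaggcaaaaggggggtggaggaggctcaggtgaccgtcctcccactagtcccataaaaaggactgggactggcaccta
Ppbp, chr5:90768268-90768517, plus strand: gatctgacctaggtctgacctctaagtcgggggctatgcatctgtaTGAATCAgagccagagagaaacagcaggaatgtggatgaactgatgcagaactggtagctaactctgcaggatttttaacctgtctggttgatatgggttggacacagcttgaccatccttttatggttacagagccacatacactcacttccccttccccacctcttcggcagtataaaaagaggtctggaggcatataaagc
Prom1, chr5:44101737-44101986, minus strand: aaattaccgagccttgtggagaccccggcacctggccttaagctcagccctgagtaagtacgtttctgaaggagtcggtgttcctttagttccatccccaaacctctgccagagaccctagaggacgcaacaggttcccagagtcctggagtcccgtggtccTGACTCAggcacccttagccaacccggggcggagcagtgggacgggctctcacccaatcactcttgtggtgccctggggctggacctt
Sprr1a, chr3:92485882-92486131, minus strand: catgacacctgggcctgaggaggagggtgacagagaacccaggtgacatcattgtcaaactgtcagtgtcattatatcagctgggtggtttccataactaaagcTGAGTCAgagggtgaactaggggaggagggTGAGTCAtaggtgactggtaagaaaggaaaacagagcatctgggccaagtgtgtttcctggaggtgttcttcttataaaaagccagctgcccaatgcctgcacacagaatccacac
Counted from the start, the match begins at position -84 in Hamp2, -204 in Ppbp and -88 in the Prom1 promoter shown. A second Prom1 promoter in the table (chr5:44094769-44095018, minus strand), not printed, holds 1 match at -189. The matches in Ppbp and in this second Prom1 promoter have A as the middle base and are outside the consensus. Sprr1a has a pair of matches, at -146 and -116, and is the 1 gene of these 4 that was lower in the knockouts. The cAMP response element TGACGTCA was found in 0.76% of matched higher genes, 3.85% of lower genes and 2.77% of all tested, and the E-box CACGTG in 7.63%, 11.54% and 9.57%. The core letters of the interferon-stimulated response element stood in 3.82%, 0% and 3.91%, and the inverted repeat bound by the bile acid receptor FXR in 0%, 0% and 0.01%. These are counts of letters, and no binding was measured.

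Acute phase proteins are made by hepatocytes under IL-6 and related cytokines. Of 26 measured genes of this response 4 rose and 0 fell, and the list median was 0.13 (0.02 without control 3, 0.26 without control 2). A2m, the protease inhibitor alpha-2-macroglobulin, was 4.54, 5.12 and 4.24 in the controls and 8.45, 7.19 and 7.35 in the knockouts. Knockout 1 was the highest, and every knockout lay more than 2 units above every control (difference 3.03, SE 0.35, limma adjusted p = 0.00824). Saa3, a serum amyloid A of macrophages and other cells, was 6.30, 7.21 and 6.28 in controls against 9.20, 9.46 and 9.25 in knockouts, 2.71 higher (adjusted p = 0.00292). Crp, C-reactive protein, rose by 0.76 (adjusted p = 0.0275), a call lost without control 1 or any 1 knockout (adjusted p up to 0.135). Saa2, with a difference of 1.61 (adjusted p = 0.0909), and Orm3, with 0.86 (adjusted p = 0.332), did not pass. The rise thus covered few members of the list.

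Hamp2, a relative of the iron hormone hepcidin, was the other called member. It was 6.46, 5.75 and 5.53 in controls and 8.58, 8.38 and 8.83 in knockouts, a rise of 2.68 (SE 0.24, limma adjusted p = 0.00292). Its groups were separated by about as much as those of Saa3. Hamp2 was the only 1 of 19 measured genes of iron and haem handling to be called, and the median of that list was -0.03. Bmp6, an inducer of hepcidin made by sinusoidal endothelium, had a difference of -0.81 (adjusted p = 0.0855).

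**Figure D2:**
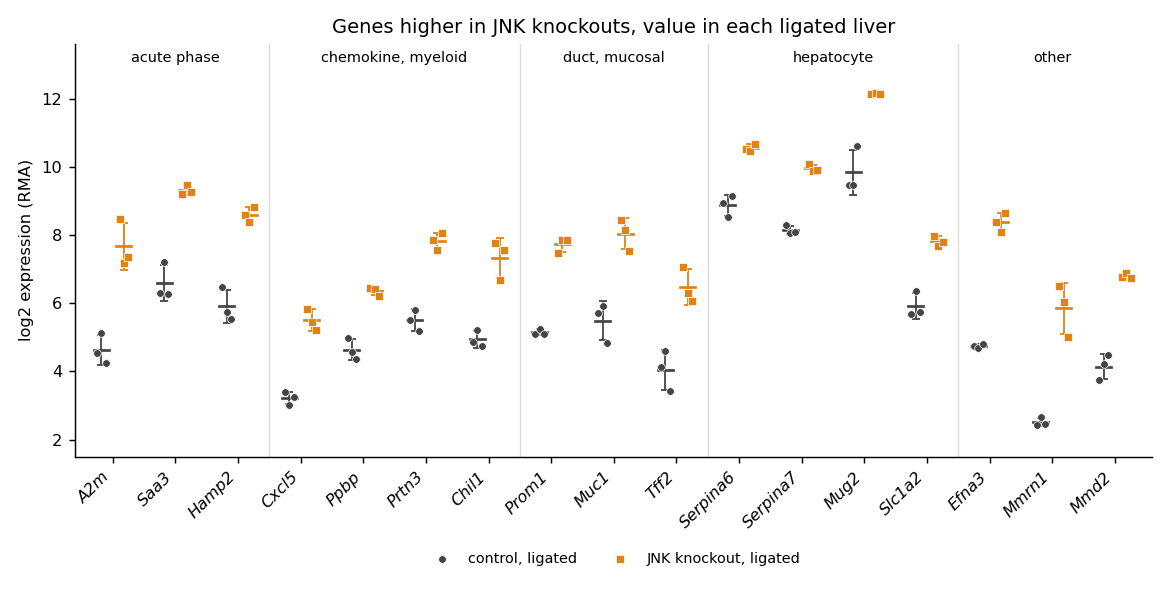
Each point is 1 liver's log2 expression of a gene that was higher in the knockouts (y axis); circles are controls, squares JNK knockouts, with the group mean (horizontal bar) and SD (vertical bar, n = 3). The 17 genes are grouped by role, and in each of them all 3 knockouts lie above all 3 controls. They were picked from the 255 called genes, none of which has overlapping groups, against 20.7% of all genes without overlap.

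Of 31 measured chemokines and cytokines 5 rose, 0 fell and 26 did not pass, with a list median of 0.16; the called ones include attractants of neutrophils, monocytes and T cells. Cxcl5, a neutrophil attractant, was 3.39, 3.02 and 3.24 in controls and 5.84, 5.44 and 5.22 in knockouts, 2.28 higher (SE 0.18, limma adjusted p = 0.00149). Its neighbours on the chromosome also rose. Ppbp, platelet basic protein, went from 4.63 ± 0.31 to 6.36 ± 0.12 (adjusted p = 0.00337), and Pf4, platelet factor 4, from 4.88 ± 0.40 to 5.97 ± 0.11 (adjusted p = 0.0435). Ccl20, which attracts CCR6-bearing lymphocytes and dendritic cells, rose by 1.05, Cxcl9, an interferon-gamma-induced T cell attractant, by 1.33, and Ccl8, a monocyte attractant, by 2.16. Il6 was called at 2.09 ± 0.08 in controls and 2.70 ± 0.05 in knockouts; no detection calls came with the values, and whether so low a value lies above background was not tested. Cxcl1 (0.70, adjusted p = 0.545) and Cxcl2 (0.69, adjusted p = 0.198), other neutrophil attractants, did not pass. Cxcl5 and Ppbp belong to the core of 49. Ccl20 was lost without knockout 1 or 2 (adjusted p up to 0.0563), Cxcl9 without control 1 or knockout 1 (0.0757), Ccl8 and Il6 without control 1 or any 1 knockout (0.158 and 0.15), and Pf4 without control 2, control 3 or any 1 knockout (0.176).

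Single genes of granulocytes and macrophages rose, while the lists held few calls. Prtn3, proteinase 3 of neutrophil granules, was 5.50, 5.81 and 5.18 in controls and 7.86, 7.55 and 8.05 in knockouts (difference 2.32, SE 0.19, limma adjusted p = 0.00207). Chil1, a chitinase-like protein released by macrophages and neutrophils, was 4.85, 5.22 and 4.73 in controls and 7.77, 6.67 and 7.56 in knockouts (difference 2.40, adjusted p = 0.00835). Both are in the core of 49. Of 15 neutrophil markers 0 passed (7 higher and 0 lower at unadjusted p under 0.05), against 7.68% and 6.93% of all genes. In the list 14 members stood above 0, with a median of 0.54 that was 0.85 without control 1. S100a9 had a difference of 1.18 (adjusted p = 0.122), Ltf 1.07 (0.115) and Mpo 1.02 (0.209). The summed level of the neutrophil list was 12.80 to 13.10 in controls and 13.02 to 13.05 in knockouts, so that the groups overlapped.

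Among 23 macrophage and Kupffer cell genes 1 passed, Lyz2, lysozyme, which rose by 0.61 from 10.46 ± 0.10 to 11.07 ± 0.07 (limma adjusted p = 0.0382). The list median was 0.17, and its summed level was 13.39 to 13.62 in controls and 13.57 to 13.78 in knockouts. Other myeloid genes outside the list were also called, and they were picked out after their values were seen. Ms4a7, of the macrophage lineage, rose by 1.35 and is in the core of 49. Clec7a and Clec4n, the fungal receptors dectin-1 and dectin-2, rose by 1.03 and 0.76, and Ly86 and its partner Cd180 by 0.87 and 1.25. Cd209a, a lectin of dendritic cells, rose by 1.06 and was the 1 called gene among 16 of dendritic cells and MHC class II, whose median was -0.11 (0.13 without control 1, -0.29 without control 2). Clec7a was lost without knockout 1 or 2 (adjusted p up to 0.113), Clec4n and Ly86 without any 1 knockout (0.113 and 0.102), Cd209a also without control 1 (0.127), and Lyz2 and Cd180 also without control 1 or control 2 (0.176 and 0.173). Of 22 T and NK cell genes (median 0.06) and 17 B and plasma cell genes (median 0.27) 0 passed by limma, with 3 and 6 higher and 0 lower at unadjusted p under 0.05. In the first list the largest differences were those of Thy1 (0.84), Cd4 (0.54) and Klrb1c (0.50), in the second those of Derl3 (1.34), Ighm (0.69) and Cd22 (0.58). The T and NK median turned to -0.02 without control 1 and -0.08 without knockout 1, and the B cell median was 0.13 without knockout 1 and 0.41 without control 3. The part of cell numbers in these differences was not tested.

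Bile duct epithelium multiplies after ligation, and its markers were examined next. Of 27 measured biliary genes 2 rose and 2 fell. The list median was 0.37 (0.21 without control 3), against -0.0018 over all genes, and its summed level was 11.73 to 11.99 in controls and 12.05 to 12.39 in knockouts, with no overlap. Groups did not overlap for 20.7% of all genes tested either. Among the summed cell type lists, only this one and the hepatocyte list were without overlap. The share of duct cells in each liver was not tested. Prom1, the progenitor and duct surface protein CD133, was 5.09, 5.25 and 5.10 in controls and 7.46, 7.86 and 7.84 in knockouts (difference 2.57, SE 0.13, limma adjusted p = 0.000311). A second and dimmer Prom1 probe set differed by 0.19. Muc1, a membrane mucin, was 5.70, 5.92 and 4.84 in controls and 8.43, 8.15 and 7.54 in knockouts (difference 2.55, adjusted p = 0.0104). The 2 duct genes that fell were Cldn6, a tight junction claudin (-1.35), and Elf3, an epithelial transcription factor (-1.23). Mmp7 (1.71, adjusted p = 0.497), Tspan8 (1.25, adjusted p = 0.113) and Krt23 (-1.46, adjusted p = 0.143) did not pass. Muc1 was lost without knockout 1 or 2 (adjusted p up to 0.0701), Elf3 without any 1 knockout (0.132) and Cldn6 also without control 1 (0.12).

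Among the genes called higher were secreted and surface proteins of mucosal epithelia, picked out after their values were seen, so that their shared direction is no finding. Tff2, a trefoil peptide of mucus, was 4.13, 4.59 and 3.42 in controls and 7.07, 6.31 and 6.07 in knockouts, 2.43 higher (limma adjusted p = 0.0171). Tff3, the trefoil peptide of biliary and intestinal mucus, rose by 1.94 from 6.21 ± 0.66 to 8.15 ± 0.43 (adjusted p = 0.0402). Spink4, a protease inhibitor of goblet cells, rose by 1.10 (adjusted p = 0.019) and Prom2, a relative of Prom1, by 1.30 (adjusted p = 0.026). These calls leaned on single livers: Tff2 and Prom2 were lost without control 1, knockout 1 or knockout 2 (adjusted p up to 0.0843 and 0.112), Spink4 without control 1 or any 1 knockout (0.0977), and Tff3 without control 2, control 3 or any 1 knockout (0.179). Tff3 and Prom1 were the 2 called members of 19 oncofetal and tumour markers, whose median was 0.02. Afp and Gpc3, classical tumour markers of liver, are among the 17 that did not pass.

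Among the genes called lower were proteins of the epithelial cytoskeleton and junctions; they, too, were picked from the calls, which fixes their direction. Sprr1a, a small proline-rich protein of the cornified envelope that is induced in stressed epithelia, was 8.18, 7.46 and 9.50 in controls and 4.42, 4.72 and 4.45 in knockouts, a fall of 3.85 (SE 0.44, limma adjusted p = 0.0082). Control 3 was the highest and control 2 the lowest, but even control 2 stood far above the knockouts. Eppk1, the keratin linker epiplakin, fell by 1.31 from 8.29 ± 0.22 to 6.98 ± 0.09. Pls1, the actin bundler plastin 1, fell by 1.88 from 8.10 ± 0.36 to 6.23 ± 0.07. Krt8 and Krt18, the keratin pair of hepatocytes and ducts, fell by 0.93 and 0.68, from 10.93 ± 0.30 and 10.82 ± 0.20. Ppl, the desmosomal linker periplakin, fell by 1.13, Pkp2, the desmosomal plaque protein plakophilin 2, by 0.72, and Myo5b, a motor of apical membrane traffic, by 0.58.

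Of these, Eppk1 and Pls1 are in the core of 49. The call for Sprr1a was lost without knockout 1 or 2 (limma adjusted p up to 0.0529), that for Ppl without any 1 knockout (0.0963), those for Krt8, Pkp2 and Myo5b without control 1 or any 1 knockout (0.165, 0.133 and 0.17), and that for Krt18 also without control 3 but not without control 2 (0.189). Sprr1a has relatives beside it that did not move together. Sprr1b fell by 0.55, while Sprr2a1 and Sprr2b rose by 1.90 and 1.18. Sprr1b was lost without any liver but control 2 (adjusted p up to 0.189), Sprr2a1 without any but control 3 (0.149) and Sprr2b without any 1 liver (0.153). Near-identical members of this family can share probe signal, and their single values are uncertain.

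**Figure D3:**
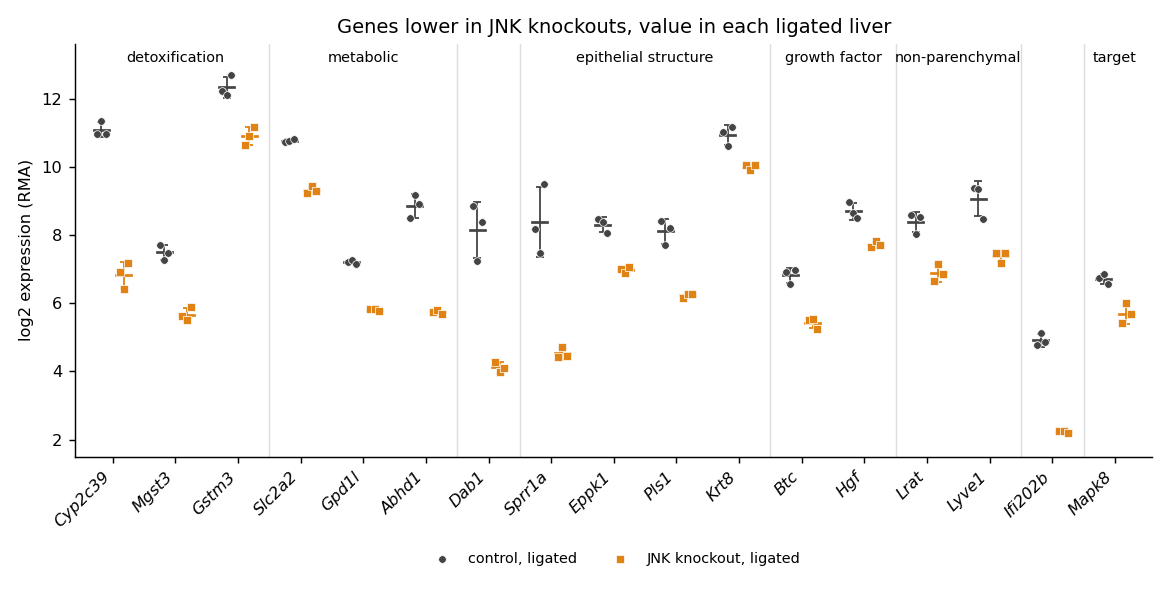
Each point is 1 liver's log2 expression of a gene that was lower in the knockouts (y axis); circles are controls, squares JNK knockouts, with the group mean (horizontal bar) and SD (vertical bar, n = 3). The 17 genes are grouped by role, and in each of them all 3 knockouts lie below all 3 controls, with Cyp2c39, Dab1 and Sprr1a furthest apart. They, too, were picked from the 255 called genes, none of which has overlapping groups.

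Genes of hepatocyte function gave no call. Of 26 measured genes of hepatocyte function 0 passed, at unadjusted p under 0.05 8 were higher and 0 lower, and the median was 0.11. Cyp2f2, a periportal-type P450, had a difference of 0.87 (limma adjusted p = 0.376) and Oat, ornithine aminotransferase of pericentral hepatocytes, one of 0.69 (adjusted p = 0.271). The summed level of the list, given above, did not overlap between the groups, as was so for 20.7% of all genes tested. Of 17 hepatocyte transcription factors 0 passed (2 higher and 2 lower at unadjusted p under 0.05), with a median of -0.09; Nr1i2, the xenobiotic receptor PXR, had a difference of -0.68 (limma adjusted p = 0.0718) and Tbx3, a pericentral factor, one of 1.00 (adjusted p = 0.109). The genes called higher included secreted hepatocyte proteins, picked out after their values were seen. Serpina6, the corticosteroid carrier of plasma, was 8.95, 8.54 and 9.14 in controls and 10.52, 10.46 and 10.68 in knockouts (difference 1.68, adjusted p = 0.00394). Serpina7, the thyroxine carrier, was 8.29, 8.05 and 8.09 in controls and 10.07, 9.89 and 9.92 in knockouts (difference 1.81, SE 0.11, adjusted p = 0.000611). Mug2, a murinoglobulin related to A2m, was 9.46, 9.47 and 10.60 in controls and 12.12, 12.15 and 12.14 in knockouts, 2.29 higher (adjusted p = 0.0105). Serpina6 and Serpina7 are in the core of 49, and Mug2 was lost without any 1 knockout (adjusted p up to 0.0701).

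Genes of the urea cycle and of hepatocyte zones within the lobule had the third largest list median, 0.47, after those of the cell cycle and neutrophils. Of 22 members 4 rose and 0 fell, and at unadjusted p under 0.05 13 were higher and 0 lower. Slc1a2, the glutamate transporter of pericentral hepatocytes, was 5.67, 6.36 and 5.75 in controls and 7.98, 7.68 and 7.81 in knockouts (difference 1.90, SE 0.19, limma adjusted p = 0.00451). Ctsc, the lysosomal protease cathepsin C, rose by 1.09 from 9.58 ± 0.05 to 10.67 ± 0.05 (adjusted p = 0.00292). Both are in the core of 49. Aldh1b1, a mitochondrial aldehyde dehydrogenase, rose by 1.19 and Slc1a4, a neutral amino acid transporter, by 0.85; Slc1a4 was lost without control 1 or any 1 knockout (adjusted p up to 0.0977) and Aldh1b1 also without control 2 (0.165). Hal, the periportal histidine ammonia-lyase, had a difference of 0.88 (adjusted p = 0.105).

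Cytochrome P450 genes had a median of 0.41 over 37 members, with 1 higher and 1 lower. The lower one was Cyp2c39, a CYP2C enzyme that oxidises retinoic acid, at 10.95, 11.34 and 10.95 in controls and 6.90, 6.40 and 7.17 in knockouts. Its fall of 4.25 (SE 0.21, limma adjusted p = 0.000233) amounts to a 19.1-fold difference and is in the core of 49. Its neighbour Cyp2c29 moved the other way, from 9.26 ± 0.49 to 10.76 ± 0.19 (adjusted p = 0.026), a call lost without any 1 knockout (adjusted p up to 0.132). Genes of the Cyp2c family are close copies, so that shared probe signal could blur either value. Cyp26a1, the main retinoic acid hydroxylase, had a difference of 2.16 (adjusted p = 0.0924) and Cyp17a1 one of 1.80 (adjusted p = 0.0905), neither called.

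Of 23 NRF2 and glutathione genes 0 rose, 2 fell and 21 did not pass, with 8 members above 0 and a median of -0.18. Gstm3, a glutathione S-transferase, was 12.22, 12.10 and 12.68 in controls and 10.65, 10.90 and 11.18 in knockouts (difference -1.42, limma adjusted p = 0.0151). Its second probe set gave a difference of -1.75. Ephx1, microsomal epoxide hydrolase, fell by 0.85 to 10.20 ± 0.06 (adjusted p = 0.0108). Mgst3, a microsomal glutathione transferase outside that list, fell by 1.82 from 7.49 ± 0.22 to 5.67 ± 0.19 (adjusted p = 0.00225) and is in the core of 49. Gstm3 was lost without control 1, knockout 1 or knockout 2 (adjusted p up to 0.0898) and Ephx1 without knockout 1 or 2 (0.0725). Nqo1, a standard NRF2 target, had a difference of -0.50 (adjusted p = 0.361).

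In glucose and lipid handling, Slc2a2, which encodes GLUT2, the glucose transporter of hepatocytes, was 10.71, 10.74 and 10.82 in controls and 9.24, 9.43 and 9.30 in knockouts. The replicates lay close together, and the fall of 1.44 (SE 0.10, limma adjusted p = 0.000891) is in the core of 49. It was the 1 called gene of 20 in glucose metabolism, where the median was 0.08. Gpd1l, a relative of glycerol-3-phosphate dehydrogenase, fell by 1.40 from 7.20 ± 0.06 to 5.80 ± 0.03 (adjusted p = 0.000851), and Elovl7, a fatty acid elongase, by 1.91 from 7.72 ± 0.25 to 5.81 ± 0.33 (adjusted p = 0.00451). Of 27 genes of fatty acid and triglyceride synthesis 1 rose and 3 fell, with a median of 0.06. Mlxipl, the sugar-sensing factor ChREBP, rose by 0.67; Pparg, the adipogenic nuclear receptor, fell by 0.76, Cidec, a lipid droplet protein, by 0.83 and Lpin2, a phosphatidate phosphatase, by 0.65. Fabp5, a fatty acid binding protein of macrophages and epithelia, rose by 1.94 while Fabp7, a liver and brain relative, fell by 1.10, both in the core of 49. Fgf21, a fasting hormone of liver, rose by 1.12 and was the 1 called gene of 29 PPARalpha and fatty acid oxidation genes (median -0.04). Pparg and Cidec were lost without control 1 or any 1 knockout (adjusted p up to 0.164 and 0.125), Mlxipl also without control 2 (0.134), Lpin2 without any 1 liver (0.162) and Fgf21 without any 1 knockout (0.0966).

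Few bile acid genes were called. In synthesis and conjugation 1 of 18 genes rose and 1 fell, with a median of 0.25 that was 0.01 without control 1. Baat, which joins bile acids to taurine or glycine, fell by 0.62 from 9.14 ± 0.07 to 8.52 ± 0.12 (limma adjusted p = 0.0402), and Ch25h, cholesterol 25-hydroxylase, rose by 1.46 from 4.27 ± 0.41 to 5.73 ± 0.39 (adjusted p = 0.0377). Csad, which makes taurine and was noted after its value was seen, fell by 1.36 from 9.44 ± 0.23 to 8.08 ± 0.18 (adjusted p = 0.00732). Cyp7a1, the rate-limiting enzyme of bile acid synthesis, had a difference of 0.60 (adjusted p = 0.7) and Cyp8b1, the 12-alpha-hydroxylase, one of 0.65 (adjusted p = 0.722). Baat and Ch25h were lost without control 1, control 2 or any 1 knockout (adjusted p up to 0.158 and 0.131), and Csad without knockout 1 (0.0517).

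Among 20 bile acid and organic anion transporters 1 rose and 1 fell, with a median of -0.04. Abcg8, a subunit of the canalicular sterol exporter, was 8.93, 9.18 and 8.98 in controls and 9.98, 9.91 and 10.06 in knockouts (difference 0.96, limma adjusted p = 0.00824). Abcb1a, a multidrug exporter, was 7.75, 7.88 and 7.55 in controls and 6.61, 6.80 and 6.77 in knockouts, 2-fold lower (adjusted p = 0.0101). Both calls were lost without knockout 1 or 2 (adjusted p up to 0.053 and 0.0587). Abcb1b, a close relative of Abcb1a, had a difference of -1.57 (adjusted p = 0.064). Of 16 genes of bile acid detoxification and sensing 0 passed (3 higher and 2 lower at unadjusted p under 0.05). Ugt2b1, a glucuronosyltransferase, had a difference of 0.93 (adjusted p = 0.181) and Cyp2b10, a target of the receptor CAR, one of 0.74 (adjusted p = 0.197). The list median was 0.20 (0.09 without control 2), and the receptor FXR, encoded by Nr1h4, stood at -0.36 (adjusted p = 0.198). Alpl, alkaline phosphatase, a clinical marker of cholestasis, is outside the lists and was picked out after its value was seen. It fell by 1.64 from 8.59 ± 0.59 to 6.95 ± 0.29 (limma adjusted p = 0.0402), a call lost without control 1 or any 1 knockout (0.16).

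Scar formation was read from stellate cell and matrix genes. Acta2, smooth muscle actin of myofibroblasts, was 8.42, 7.94 and 7.52 in controls and 9.42, 9.20 and 9.32 in knockouts, 1.35 higher (limma adjusted p = 0.0276). Lrat, which stores vitamin A in quiescent stellate cells, was 8.57, 8.03 and 8.52 in controls and 6.64, 7.15 and 6.86 in knockouts, 1.49 lower (adjusted p = 0.0105). Tgfb2, a profibrotic cytokine, fell by 0.84. Acta2, Lrat and Tgfb2 were the 3 called among 24 stellate cell genes, whose median was -0.10. The summed level of that list overlapped (12.07 to 12.56 in controls, 12.28 to 12.45 in knockouts). Of the 24, 12 stood above 0 and 12 below. At unadjusted p under 0.05, 5 were higher and 7 lower, against 7.68% and 6.93% of all genes. Of 31 collagen and matrix genes only Col15a1, a basement membrane collagen, passed, with a rise of 0.76; the median was 0.09 and Col1a1 had a difference of 0.64 (adjusted p = 0.097). Of 22 matrix proteases and inhibitors Adam12, a metalloprotease of activated stellate cells, rose by 0.86 and none fell. Acta2 and Adam12 were lost without any 1 knockout (adjusted p up to 0.134 and 0.0671), Lrat without knockout 1 or 3 (0.0565), Col15a1 without control 1 or any 1 knockout (0.125) and Tgfb2 also without control 3 but not control 2 (0.164).

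Of 29 growth factors and receptors 1 rose and 2 fell. Btc, betacellulin, a ligand of the EGF receptor, was 6.90, 6.56 and 6.98 in controls and 5.50, 5.52 and 5.25 in knockouts, a fall of 1.39 (SE 0.14, limma adjusted p = 0.00495) that is in the core of 49. Hgf, the hepatocyte growth factor made by stellate cells, was 8.97, 8.63 and 8.49 in controls and 7.64, 7.81 and 7.70 in knockouts, a fall of 0.98 (adjusted p = 0.0207). Fgf21 was the member that rose, and the list median was 0.06. Lyve1, a hyaluronan receptor of sinusoidal and lymphatic endothelium, was 9.38, 9.35 and 8.46 in controls and 7.47, 7.19 and 7.48 in knockouts (difference -1.69, adjusted p = 0.0207). It was the 1 called gene of 23 for sinusoidal endothelium, whose median was 0.13 and whose summed level overlapped (12.48 to 12.64 and 12.42 to 12.69). Gdf2, the liver hormone BMP9 and picked out after its value was seen, fell by 1.24 (adjusted p = 0.0496), and Smad9, which relays signals of the BMP family, by 1.46 (adjusted p = 0.00292). Hgf was lost without any 1 knockout (adjusted p up to 0.109), Lyve1 also without control 1 (0.113) and Gdf2 also without control 1 or control 2 (0.192), while Smad9 is in the core of 49.

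Cell cycle genes had the largest list median, 0.56, with 29 of 30 members above 0, against 49.6% of all genes, yet 2 passed. At unadjusted p under 0.05, 14 were higher and 0 lower, against 7.68% and 6.93% of all genes. Rrm2, which makes deoxynucleotides, was 4.71, 5.33 and 5.05 in controls and 6.26, 6.47 and 6.31 in knockouts (difference 1.32, limma adjusted p = 0.0105). Mcm6, of the replicative helicase, rose by 0.72 (adjusted p = 0.0493). Kif11 (1.04, adjusted p = 0.0611), E2f8 (1.03, adjusted p = 0.0553) and Mki67 (0.84, adjusted p = 0.4) did not pass. Without control 2, which had the highest Rrm2 value of the controls, 11 cell cycle genes were called, while 0 were called without knockout 1, knockout 2 or knockout 3. Rrm2 was lost without any 1 knockout (adjusted p up to 0.0701) and Mcm6 also without control 1 or control 2 (0.198).

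p53 targets had the lowest list median, -0.32, with 0 members higher and 10 lower at unadjusted p under 0.05. Of 19 members 15 stood below 0 and 1 passed, Eda2r, a receptor of the TNF family, which was 5.26, 4.97 and 5.32 in controls and 4.42, 4.07 and 4.08 in knockouts (difference -0.99, limma adjusted p = 0.0215). That call was lost without control 1 or any 1 knockout (adjusted p up to 0.12). Cdkn1a, the cell cycle inhibitor p21, had a difference of -0.61 (adjusted p = 0.323). Of 28 cell death genes 0 passed (2 higher and 3 lower at unadjusted p under 0.05), near the shares over all genes, and their median was -0.04. Casp12, a caspase of the endoplasmic reticulum, had a difference of -0.78 (adjusted p = 0.17), Tnfsf10, the death ligand TRAIL, 0.67 (0.185) and Bid, a BCL2 family member, 0.51 (0.191).

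Stress and immune pathways gave few calls. In ER and integrated stress 2 of 20 rose, Fgf21 and the chaperone partner Sdf2l1 (difference 1.46, limma adjusted p = 0.0494, lost without control 1, control 2 or any 1 knockout, adjusted p up to 0.178), with a median of 0.21. In the interferon response 2 of 32 rose, Cxcl9 and Oasl2, an oligoadenylate synthetase relative (difference 0.55, adjusted p = 0.0463, lost without the same 5 livers, adjusted p up to 0.198), with a median of 0.15. Of 22 NF-kB targets Saa3 was the 1 called, and the median was -0.10 (0.02 without control 1, -0.24 without control 3). In 25 Notch and YAP genes (median 0.05), 21 of cholesterol synthesis and uptake (0.21) and 17 of the circadian clock (-0.30) 0 passed by limma. At unadjusted p under 0.05, 4 and 2 Notch and YAP genes, 0 and 0 cholesterol genes, and 4 and 6 clock genes were higher and lower, against 7.68% and 6.93% of all genes. The cholesterol median turned to -0.20 without control 2 and was 0.85 without control 3, and the clock median was -0.13 without control 1, -0.16 without control 2 and -0.71 without control 3. Their largest differences were those of the YAP targets Ccn1 (1.12), Ccn2 (0.76) and Ankrd1 (0.69), of the sterol genes Insig1 (0.94), Sc5d (0.87) and Fdps (0.64), and of the clock genes Usp2 (-1.15) and Npas2 (1.06), none of which passed.

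Of 18 male-biased liver genes Mup3 and Mup21, major urinary proteins, rose, and the median was 0.25. Mup3 was 6.92, 7.63 and 9.04 in controls and 10.53, 10.72 and 10.37 in knockouts (difference 2.68, limma adjusted p = 0.0379), the controls being spread widely. Without control 1, control 2 or any 1 knockout that call was lost (adjusted p up to 0.173). The call for Mup21 (difference 1.47) was lost without control 1 or any 1 knockout (0.0764). Mup genes are close copies, and which member gave the signal is uncertain. Prom1 was the 1 called of 13 female-biased genes (median -0.05). Of 4 sex chromosome genes (median -0.13), 14 of exocrine pancreas (0.01) and 8 of erythroid cells (0.18) 0 passed (0 higher, with 1, 1 and 0 lower at unadjusted p under 0.05), and Cidec was the 1 called of 15 of adipose tissue and mesothelium (0.18). The summed adipose and mesothelial level ran from 9.25 to 11.51 in controls and from 10.56 to 10.64 in knockouts.

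**Figure D4:**
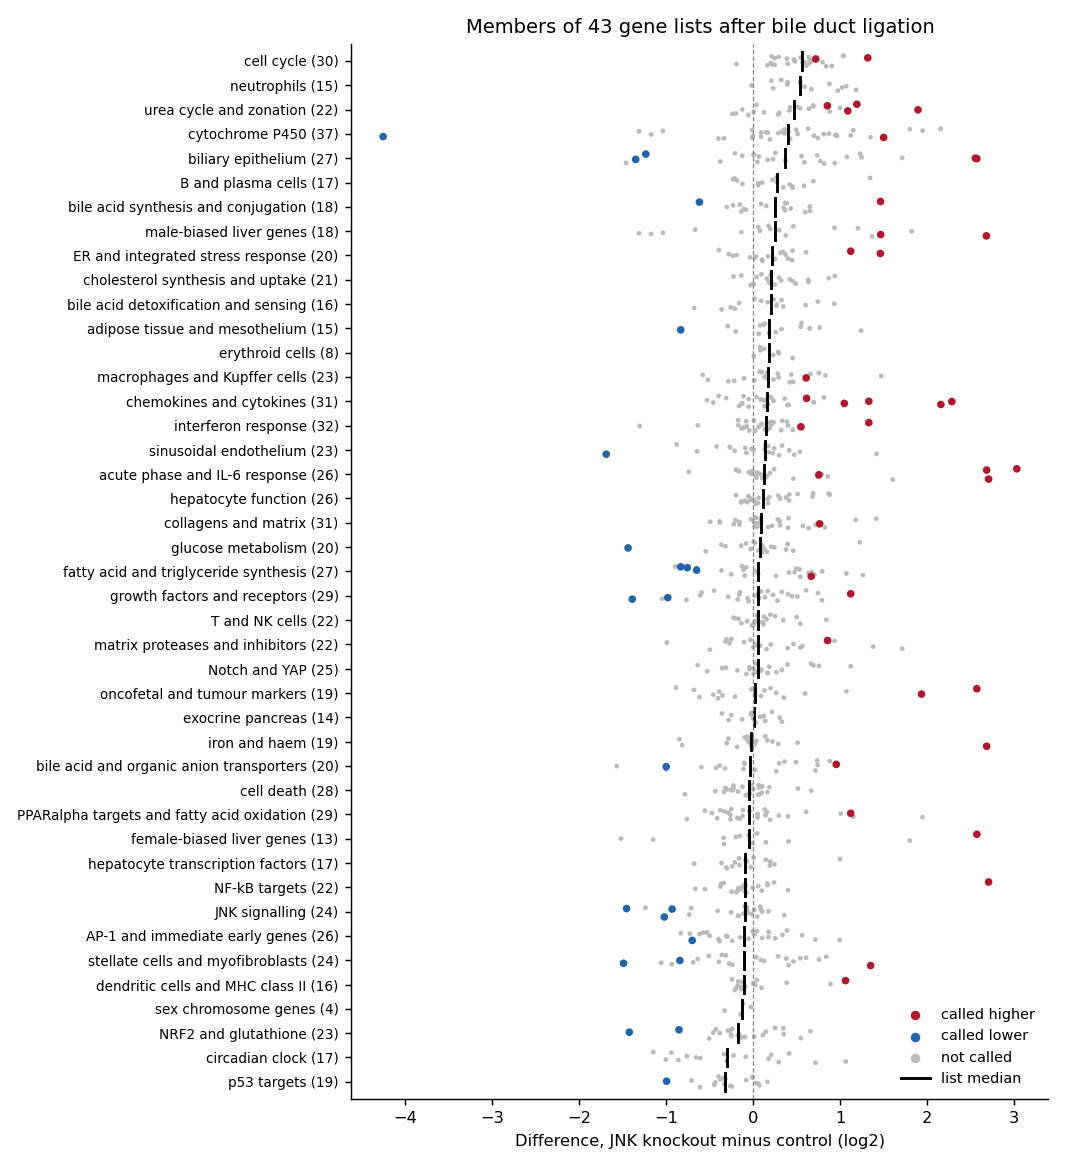
Each row is 1 of 43 gene lists with its number of measured genes; each point is a member placed by its knockout minus control difference after ligation (log2, x axis), and the black bar is the list median. Red and blue points are members called higher or lower; medians run from -0.32 for p53 targets to 0.56 for the cell cycle, and 27 of the 43 kept their sign whichever ligated liver was left out.

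Large falls were also seen outside these lists. Dab1, the adaptor of reelin receptors, was 8.84, 7.24 and 8.38 in controls and 4.28, 3.97 and 4.09 in knockouts, a fall of 4.04 (SE 0.36, limma adjusted p = 0.00292). Abhd1, a hydrolase family member, was 8.49, 9.17 and 8.91 in controls and 5.75, 5.79 and 5.67 in knockouts, a fall of 3.12 (SE 0.17, adjusted p = 0.000338). Ifi202b, an interferon-inducible DNA-binding protein, was 4.76, 5.11 and 4.85 in controls and 2.25, 2.24 and 2.19 in knockouts, a fall of 2.68 (SE 0.12, adjusted p = 0.000174). The spread among knockouts was small in all 3. Catspere2, a sperm ion channel subunit, fell by 2.11 to 2.91 ± 0.07, and Mybl1, a MYB family transcription factor, by 1.71 to 4.63 ± 0.18. Prelid2, a protein with a PRELI domain, fell by 1.76 from 6.51 ± 0.11 to 4.76 ± 0.09, and Tmc5, a transmembrane channel-like protein, by 2.24 and Cpe, carboxypeptidase E, by 1.81. All of these are in the core of 49, together with the uncharacterised BC018473, named here after its value was seen, which had the largest fall of all genes (8.93 ± 0.70 to 3.77 ± 0.08, a difference of -5.16, adjusted p = 0.000499). Serpinb6b, an intracellular serine protease inhibitor, fell by 2.01, Fam25c by 1.85 and Camk2b, a calmodulin-dependent kinase subunit, by 1.75. Serpinb6b was lost without any 1 knockout (adjusted p up to 0.102), Fam25c without knockout 1 or 2 (0.109) and Camk2b without control 1, knockout 2 or knockout 3 (0.102).

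Each mean of the 2 ligated groups was set beside those of the 6 other groups of the series, which differ in age, treatment and genotype. By label, JNK1 is also missing in the carcinogen-treated JNKΔhepa, the NEMO/JNKΔhepa and the NEMO/JNK1Δhepa livers. Their mean Mapk8 values were 5.88, 5.65 and 6.05. Among the ligated controls, 2 mice also carried identifiers of a series that occurs in no other group. The part of that identifier series in a control mean outside the range was not tested. Of the 105 lower genes, 52 had a control mean outside the range of the other 6 group means and a knockout mean within it (49.5%), and 17 the reverse (16.2%). Of the 150 higher genes these numbers were 50 (33.3%) and 44 (29.3%), and over all genes tested the shares were 17.3% and 13.8%. Called genes were selected because the 2 ligated means differed, which by itself puts a mean outside the range more often. Their larger shares are therefore no finding. In Cyp2c39 the ligated controls (11.08) lay above the others (6.22 to 8.39) and the knockouts (6.83) within them. Catspere2 was similar, at 5.02 in ligated controls, 2.91 in knockouts and 2.86 to 3.13 elsewhere. In A2m the knockouts (7.66) lay above the others (3.77 to 4.78), with the controls (4.63) among them. Cxcl5 and Efna3 also had only the knockouts outside, at 5.50 against 2.62 to 4.06 and at 8.38 against 4.34 to 6.51. Slc2a2 had the knockouts below, at 9.32 against 10.56 to 11.13. Saa3, Prtn3 and Chil1 were above the other groups in both ligated groups.

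Called genes often lay near each other. Of the 255, 52 (20.4%) had another called gene whose start was within 250 kb (RefSeq, GRCm38.p6), against 8.78% of all tested genes with a called gene that near. They formed 22 clusters, 9 of which held both directions. The largest was the Sprr and Lce1c group of 5 genes, with 3 higher and 2 lower. Cxcl5, Ppbp and Pf4 were a cluster with rises alone, as were Tff2 with Tff3 and Muc1 with Efna3. Krt8, Krt18 and Csad were a cluster with falls alone, while Cyp2c29 lay beside Cyp2c39 with the opposite sign. Copies within a family can share probe signal, and its part in this share was not tested. Other clusters join genes of different families, such as Muc1 with Efna3 or Abhd1 with Slc5a6. The part of the identifier series of controls 1 and 2 was not tested either.

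The same genotypes were also examined after diethylnitrosamine, in 3 knockouts and 3 controls that share no array with the ligated livers. There, limma called 0 genes (0%), with 781 at unadjusted p under 0.05. Of the 255 genes called after ligation 189 (74.1%) had a difference of the same sign after the carcinogen, against 52.4% of all genes. At unadjusted p under 0.05 after the carcinogen, 42 of the 255 had the same sign and 2 the other. Hamp2 differed by 2.49 after the carcinogen and 2.68 after ligation, and Muc1 by 2.25 and 2.55. Kcne3, a potassium channel subunit chosen after its values were seen, differed by 1.94 and 1.84; its call after ligation was lost without knockout 1 or 2 (adjusted p up to 0.0683). Akr1c18, a progesterone-degrading enzyme, had differences of opposite sign, -3.49 and 2.67. The first was not called, and Akr1c18 is not among the 9 genes of the interaction test below, so that the reversal is not established. Its call after ligation was lost without control 1 (limma adjusted p = 0.0503). One of the carcinogen-treated knockouts had an Xist value of 10.38 and low Y-linked genes, against Xist values of at most 3.04 in the 6 ligated livers.

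Whether the genotype difference itself differed between the injuries was tested as an interaction over 12 arrays, and 9 genes passed (0.0478% of 18820), all of them also called after ligation. The carcinogen livers, with day 40 stated against day 28, all carry the identifier series of ligated control 3. Ligated controls 1 and 2 carry another. Injury, time and identifier series cannot be told apart in this test. Efna3, A2m, Mmrn1 and Chrm3, a muscarinic acetylcholine receptor, had a more positive difference after ligation, by 3.64, 3.60, 3.08 and 2.41. Abhd1, Catspere2, Mybl1, Gpd1l and Slc2a2 had a more negative one, by -3.15, -2.14, -1.64, -1.35 and -1.18. In Slc2a2 the knockouts differed from controls by -0.25 after the carcinogen and -1.44 after ligation, and in A2m by -0.57 and 3.03. Leaving out 1 liver at a time gave 2 to 26 genes: 2 without ligated knockout 1 or 2, 3 without ligated knockout 3, ligated control 1 or carcinogen control 2, 5 without carcinogen knockout 1, 6 without carcinogen control 3, and 26 without carcinogen control 1. Abhd1 and Mybl1 were called in each of these 12 fits, although Mybl1 was not with all 24 arrays in 1 fit (adjusted p = 0.396). Without the carcinogen knockout with Xist signal 12 genes passed, and A2m, with an adjusted p of 0.0817, was not among them.

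**Figure D5:**
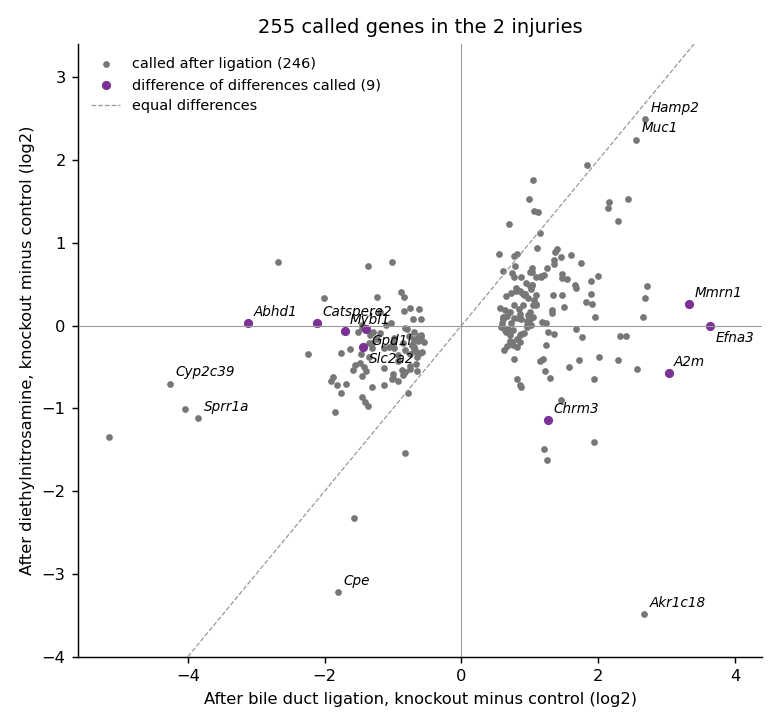
Each point is 1 of the 255 genes called after ligation, placed by its knockout minus control difference after bile duct ligation (log2, x axis) and after diethylnitrosamine (log2, y axis). Purple points are the 9 genes whose 2 differences differed in the interaction test; Hamp2 and Muc1 lie near the line of equal differences, and Efna3 and Abhd1 near 0 on the y axis.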

How the data were processed

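RNA from whole liver was hybridised to whole-transcript Affymetrix arrays, 1 for each mouse. The authors deposited log2 expression levels for each probe set. Per the submitters' processing notes these come from RMA, a method that corrects background, equalises distributions between arrays and combines probes; in such values differences at low signal are compressed. Which RMA program, chip definition or genome build was used is not given in the sources used here. No detection calls came with the values. Of 35556 probe sets 21218 had 1 gene symbol, 1881 several and 12457 none; Entrez identifiers of 21185 matched RefSeq (GRCm38.p6). For 1386 of the 18820 genes the brightest of several probe sets was used.

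The 3 knockout and 3 control livers were fitted in R 4.3.3 with limma 3.58.1 (lmFit and eBayes, two-sided, Benjamini-Hochberg over all genes, adjusted p under 0.05, no filter). SE is the moderated standard error. The interaction with diethylnitrosamine used 12 arrays. An exact permutation test of 3 against 3 mice cannot go below 0.1 and was not used. Replicates are separate mice, and 3 a group limits precision. Replicate numbers were not taken to pair the mice. The procedures were tested on simulated data.

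Gene lists and members were chosen with earlier results of these data known. Named genes were the targets, called genes with the 15 largest rises and the 15 largest falls (names that are only identifiers left out), the called members of a list (at most 4, by p), and up to 3 members of lists without a call. Other called genes were named after their values were seen. Many are marked so in the text, while some, such as Gpd1l, Fabp5, Fabp7, Smad9, Ppbp, Pf4 and Mybl1, are not. List members that did not pass are given as values. Summed levels are the log2 of summed linear values of a list. Alternatives left out each mouse in turn, or changed the block, scaling, spread, filter, variance model, array weights or probe set.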

Additional observations from a re-analysis of the deposited data

Results flagged for a closer look

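Of the results above, 9 genes stood out because the JNK knockout difference after bile duct ligation was not the same as after diethylnitrosamine in a limma interaction test. As given above, that test cannot tell injury apart from time or identifier series. As ligation minus carcinogen on the log2 scale the values were 3.60 for A2m, 3.64 for Efna3, 3.08 for Mmrn1 and 2.41 for Chrm3. For Abhd1 the value was -3.15, for Catspere2 -2.14, for Mybl1 -1.64, for Gpd1l -1.35 and for Slc2a2 -1.18. Probe sets with several gene symbols or none lay outside the comparison of genes; of 14338 such probe sets, 9 differed between genotypes after ligation, 7 higher and 2 lower. One of them, with the symbols of Prepl and Slc3a1, was 2.31 higher in the knockouts (limma adjusted p = 0.0289).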

How the results depend on the processing

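Across the alternatives no called direction among the named genes reversed. Leaving out 1 mouse gave 32 to 310 higher and 25 to 249 lower genes, and 2 to 26 genes in the interaction. With the replicate block 83 genes were higher and 59 lower. Deviations of same-numbered mice correlated with r of 0.14, -0.07 and 0.04, and those of differently numbered mice with r of -0.15 to 0.11. Such values cannot show whether mice were paired by litter or handling. The series of mouse identifiers as a block, which leaves 1 control against 3 knockouts, gave 75 and 43. All 24 arrays in 1 fit gave 54 and 62, and array weights gave 169 lower genes. The causes were not tested. Quantile normalisation, centring, the filter on dim genes (11523 kept), trended robust variances, averaged probe sets and control 3 alone kept both counts within 1.5 times. Of the 255 genes 76 were called under each of 7 rescaling, filter and model settings that tested them, and 32 when the left-out mice and both blocks were counted too. The medians of 16 of 43 gene lists changed sign or reached 0 without 1 mouse. Low values limit the list of dim genes, such as Il6.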
